A study of Mus musculus with 6 samples.

Results

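Peri-islet Schwann cell and neuronal genes were followed in dispersed pancreatic islet cells through 8 genes, namely Sox10, S100b, Gfap, Cdh19, Ngfr, Elavl3, Elavl4 and Prph. Every array probe whose RefSeq accession belongs to one of these genes was taken (11 probes), and the probe with the highest mean signal over the 6 arrays stood for its gene. All 8 genes were among the 25790 genes tested. Islet cells of male C57Bl/6N mice were cultured for 72 h in either of the following ways. To the exoNOD cells (3 arrays) 50 µg/ml of exosomes were added, vesicles that here came from NOD T lymphocytes of the CD4+CD25- type. NOD mice become diabetic through autoimmunity. The control cells received no exosomes (3 arrays), so no vesicles of another source were tested. The 3 experiments used separate islet and exosome preparations. Whether islets of several mice were pooled is not given in the sources used here.

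Islets are wrapped by a sheath of non-myelinating Schwann cells, the glia of peripheral nerves, and receive autonomic and sensory nerve fibres whose cell bodies mostly lie elsewhere. In NOD mice this sheath is known as an early target of autoreactive T lymphocytes, and GFAP, S100B and peripherin, the products of Gfap, S100b and Prph, are known as autoantigens. Sox10 encodes the transcription factor that specifies Schwann cells from the neural crest, and the other glial genes encode a calcium-binding protein (S100b), an intermediate filament (Gfap), a cadherin (Cdh19) and the low-affinity neurotrophin receptor p75 (Ngfr). The neuronal genes encode RNA-binding Hu proteins (Elavl3 and Elavl4) and the filament of peripheral neurons, peripherin (Prph). Several of them are not restricted to nerves: pancreatic stellate cells can make Gfap and Ngfr, and beta cells make Elavl4, where it binds insulin mRNA.

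Each array held 43020 spots for transcripts, of which between 78.1% and 81.8% were well above background, and 0 were saturated. Signals are given as a percentage of the 75th percentile of their own array (% of P75), and changes as exoNOD minus control on the log2 scale. A signal well above background was as low as 1.11% to 1.35% of P75, depending on the array. In the limma fit, 27 genes passed an adjusted p of 0.05 (26 higher and 1 lower in exoNOD cells), and 2157 passed when the replicate number was added as a block (1711 higher, 446 lower). The split of the 27 depended on scaling, with 20 higher and 12 lower under quantile normalization, and 18 higher and 13 lower among values deposited by the authors. By their scan times, from which the slides were inferred, exoNOD replicate 1 and the 3 controls shared a slide. The exoNOD arrays of replicates 2 and 3 lay on another slide, without a control. In these replicates an exoNOD array is thus set against a control of the other slide, also in the fit with the block. Values within the shared slide set 1 exoNOD array against 3 controls. Bulk RNA cannot tell fewer cells of a type from less RNA per cell.

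Of the 8 genes, 7 were well above background on all 6 arrays, and S100b was so on 3 exoNOD and 2 control arrays. Another Schwann cell gene, chosen after its values were seen, was also well above background on every array. The neuregulin receptor gene Erbb3 had between 4.69% and 5.92% in exoNOD cells and between 3.99% and 5.87% in control cells. This flag did not identify a cell type on these arrays. The melanocyte list, whose cells share Sox10 with Schwann cells, had 6 of 6 genes above background on all arrays, and the list for glia of the central nervous system had 5 of 6, among them the oligodendrocyte gene Mog, with 80.4% to 103.7% of P75 in exoNOD cells and 68.0% to 72.6% in control cells. The neuronal gene Stmn2 was well above background on 0 of 6 arrays. The label of the 8 genes is therefore used as the name of the list, and their cell of origin was not tested.

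**Figure D1:**
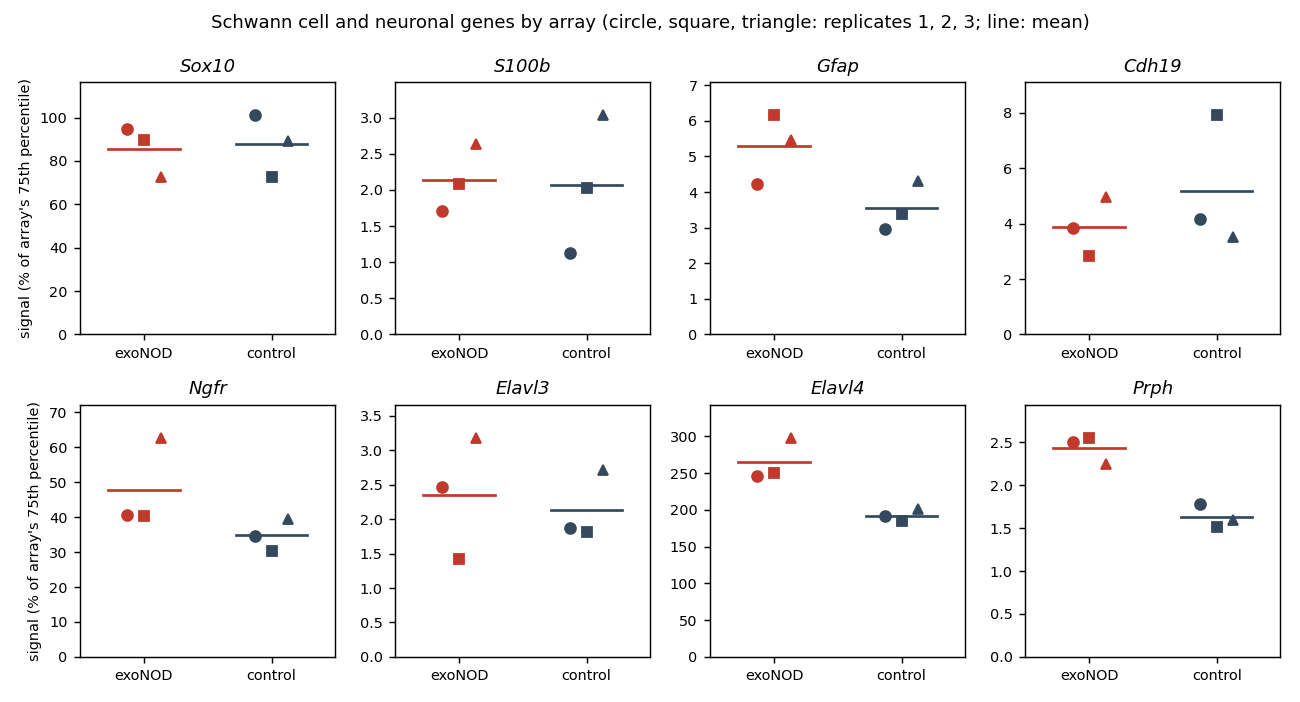
Signal of the 8 Schwann cell and neuronal genes on each array, as a percentage of the array's 75th percentile on linear axes that start at 0 and differ between panels. Each point is an array, its shape gives the replicate number, and the line is the mean of 3 arrays. The exoNOD points of Ngfr, Elavl4 and Prph all lie above the control points, while those of Sox10, S100b, Gfap, Cdh19 and Elavl3 overlap with them.

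Without the block, 0 of the 8 genes passed (limma, adjusted over all genes), against a background of 0.105% of all genes (0.101% higher, 0.00388% lower), and 3 had an unadjusted p under 0.05, against 16.6% of all genes. With the replicate block 2 of 8 passed, Elavl4 and Ngfr, both higher in exoNOD cells, against 6.63% of all genes that passed in that direction and 8.36% in either. Changes were positive for 6 genes and negative for 2, with a median of 0.29, beside a median of 0.035 and a positive change in 55.4% over all genes. Under quantile normalization 4 were positive and 4 negative (median 0.14), as they were in the authors' deposited values (0.14). The exoNOD arrays all lay above the control arrays for 3 genes (14.6% of all genes did so) and below them for 0 (7.78% of all genes). Shares this size in a list of 8 rest on single genes. In 0 of the 8 did the change reach 2-fold.

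Sox10, the factor on which the Schwann cell lineage depends, had 94.97%, 89.5% and 72.7% of P75 on the exoNOD arrays of replicates 1, 2 and 3, and 101.1%, 72.8% and 89.4% on the control arrays. The groups overlapped fully, and the lowest array of each group had nearly the same signal. The log2 change was −0.030 ± 0.16 SE (95% interval −0.39 to 0.33, limma adjusted p = 0.935), so the interval covers folds between 0.765 and 1.25. The pairs of equal replicate number differed by −0.090, 0.30 and −0.30. The sign was not settled, since within the shared slide the change was 0.13 and with normexp background correction it was 0.044.

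Cdh19, a cadherin of Schwann cell precursors and their descendants, had 3.84%, 2.83% and 4.97% of P75 in exoNOD cells, and 4.16%, 7.91% and 3.51% in control cells. Control replicate 2 stood highest, and the other controls lay inside the exoNOD range. The log2 change was −0.37 ± 0.33 (95% interval −1.12 to 0.39, adjusted p = 0.590). Without control replicate 2 the change was −0.016, and with normexp correction it was 0.58, so its direction rested on that array and on the background correction.

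S100b, the calcium-binding protein that marks Schwann cells in tissue sections, had 1.70%, 2.08% and 2.64% of P75 in exoNOD cells, and 1.13%, 2.02% and 3.03% in control cells. Control replicate 1 was not well above background. The controls held both the lowest and the highest value. The log2 change was 0.14 ± 0.36 (95% interval −0.68 to 0.96, adjusted p = 0.859), a range from 0.626-fold to 1.95-fold. It turned to −0.15 under quantile normalization, and likewise among the values processed by the authors.

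Gfap, the filament that glia make more of when activated, had 4.22%, 6.16% and 5.47% of P75 in exoNOD cells, and 2.95%, 3.37% and 4.32% in control cells. Control replicate 3 lay just above exoNOD replicate 1, and the other arrays of the groups were apart. Gfap had 1.49 times the control signal (log2 change 0.57 ± 0.22, 95% interval 0.073 to 1.08, adjusted p = 0.263, 0.0925 with the replicate block), and the 3 pairs differed by 0.51, 0.87 and 0.34. Within the shared slide the change was 0.27. It was positive in all 23 alternatives, some of which, such as the block, cannot alter it, and passed in 0 of them.

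Gfap was read by 3 probes, the first designed for one RefSeq transcript of the gene (NM_010277) and the others for a second (NM_001131020). The second probe had 3.05%, 3.39% and 5.08% of P75 in exoNOD cells, and 0.936%, 1.32% and 1.85% in control cells. Its groups did not overlap, but it was well above background on only 1 of the 3 control arrays. In a limma fit over all 39429 probes its log2 change was 1.51 ± 0.32 (adjusted p = 0.180, 0.0175 with the replicate block). The third probe was dim, well above background on 2 exoNOD arrays and 1 control array, and did not pass the filter. It had 2.80%, 1.22% and 3.15% of P75 in exoNOD cells, and 1.06%, 1.49% and 1.89% in control cells (log2 change 0.62 ± 0.40, adjusted p = 0.526, 0.328 with the block). The second probe passed the filter through the exoNOD arrays, so the sizes of these changes rest on control signals near or below the edge of detection.

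Ngfr, the p75 receptor that Schwann cells raise after loss of contact with axons, had 40.6%, 40.2% and 62.8% of P75 in exoNOD cells, and 34.7%, 30.4% and 39.3% in control cells. The groups did not overlap, but exoNOD replicate 2 lay close to control replicate 3, and exoNOD replicate 3 stood well above the other arrays. The level was 1.35-fold higher in exoNOD cells (log2 change 0.43 ± 0.19, adjusted p = 0.304), and Ngfr passed with the block (± 0.12, adjusted p = 0.0482). The call is narrow. It was lost with the block after quantile normalization (0.38, adjusted p = 0.104), with the block in the authors' values (0.38, 0.104), with the block without pair 2 (0.45, 0.188) and with the block without pair 3 (0.31, 0.281). In the fit over all probes it did not pass either (adjusted p = 0.0859 with the block). Without exoNOD replicate 3 and without the block the change was 0.22, and within the shared slide it was 0.23.

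The Ngfr probe was printed in 10 spots on every array, which gives its spread between spots. On exoNOD replicate 3 the spots ranged from 55.5% to 67.4% of P75, on exoNOD replicate 1 from 32.7% to 47.2% and on exoNOD replicate 2 from 28.9% to 49.7%. On the control arrays they ranged from 27.9% to 45.9%, 23.6% to 36.9% and 32.1% to 47.0%. The lowest spot of exoNOD replicate 3 was thus above the highest spot of every other array, while the spots of the other exoNOD arrays overlapped with those of the controls. The SD between spots of an array lay between 0.10 and 0.33 on the log2 scale. Taken spot by spot, the group difference was positive at 10 of 10 positions, between 0.33 and 0.52. All spots of an array read the same labelled RNA, so the positions do not replicate the group difference.

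Elavl3, an Hu protein of neurons, had 2.46%, 1.42% and 3.18% of P75 in exoNOD cells, and 1.86%, 1.82% and 2.72% in control cells. The exoNOD arrays held both extremes. The log2 change was 0.090 ± 0.32 (95% interval −0.65 to 0.83, adjusted p = 0.904). Its sign turned after quantile normalization (−0.18), in the authors' values (−0.18) and after scaling by the median (−0.051).

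Elavl4, the Hu protein HuD, had 246.4%, 250.3% and 298.3% of P75 in exoNOD cells, and 191.5%, 184.6% and 201.0% in control cells. The groups were well apart, and the controls lay close together. The level was 1.37-fold higher in exoNOD cells (log2 change 0.46 ± 0.11, 95% interval 0.21 to 0.71, adjusted p = 0.136). With the replicate block Elavl4 rose (± 0.082, adjusted p = 0.0106), and the pairs differed by 0.36, 0.44 and 0.57. This call held with the block after quantile normalization (0.48, adjusted p = 0.0184) and in the authors' values, which nearly repeat it (0.48, 0.0177). The call was lost with the block without pair 2 (0.47, adjusted p = 0.0772). Within the shared slide the change was 0.36.

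A second probe for the same RefSeq transcript of Elavl4 (NM_010488) did not show this difference. It had 28.1%, 20.7% and 26.5% of P75 in exoNOD cells, and 22.8%, 26.7% and 31.6% in control cells, with overlapping groups. In the fit over all probes its log2 change was −0.10 ± 0.17 (adjusted p = 0.833, 0.732 with the block), against 0.46 ± 0.10 for the first probe (adjusted p = 0.191, 0.0243 with the block). The rise of Elavl4 is therefore that of 1 of its 2 probes. The difference between the probes was not tested.

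**Figure D2:**
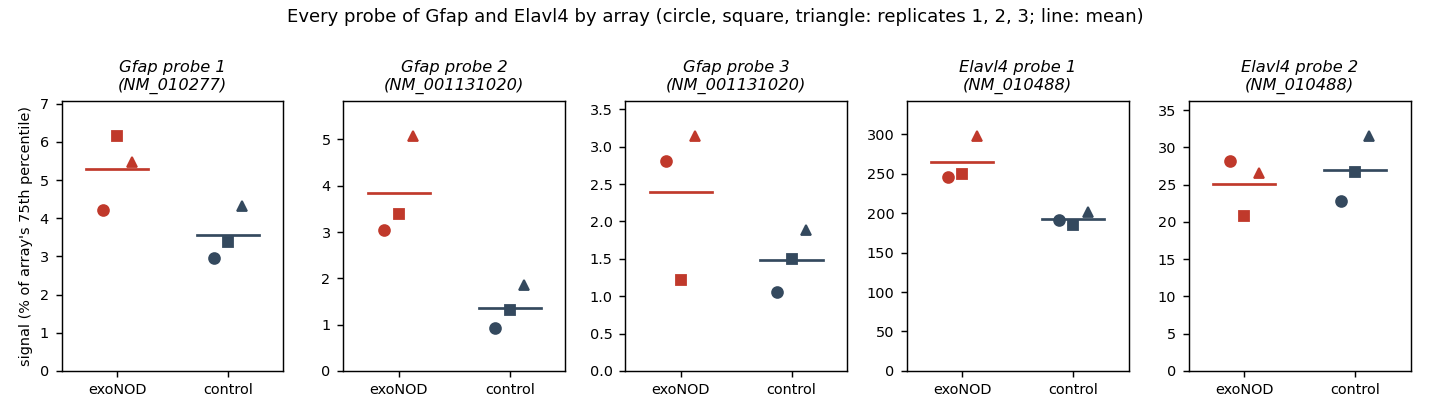
Signal of the 3 Gfap probes and the 2 Elavl4 probes on each array, as a percentage of the array's 75th percentile, with the RefSeq accession of each probe. Points are arrays and lines are means of 3. The exoNOD mean is above the control mean for every Gfap probe, whereas the Elavl4 probes differ, with means of 265.0% and 192.4% for the first and 25.1% and 27.0% for the second in exoNOD and control cells.

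Prph, the filament of autonomic and sensory neurons, had 2.50%, 2.55% and 2.25% of P75 in exoNOD cells, and 1.79%, 1.51% and 1.60% in control cells. The groups did not overlap and each was narrow. The lowest signals well above background on the control arrays were 1.29%, 1.25% and 1.12% of P75, so the control values lay near the edge of detection. The level was 1.49-fold higher in exoNOD cells (log2 change 0.58 ± 0.19, 95% interval 0.14 to 1.02, adjusted p = 0.235), and Prph did not pass with the block (adjusted p = 0.139). The pairs differed by 0.49, 0.75 and 0.49, and the change within the shared slide was 0.62. After quantile normalization it was 0.31, and with normexp correction 0.86, so the size at this low signal depended on the processing.

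**Figure D3:**
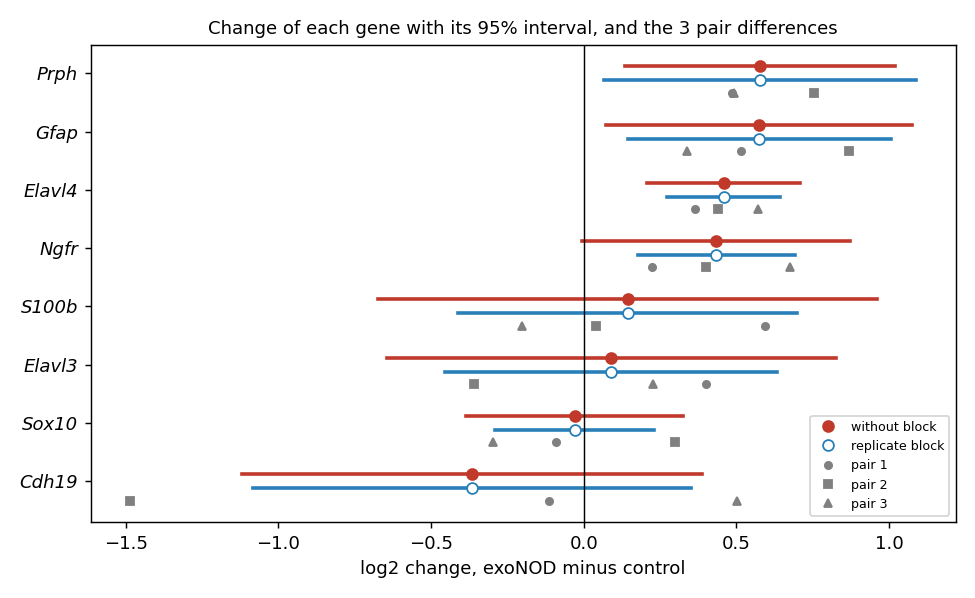
Log2 change of each gene, exoNOD minus control, with its 95% interval from limma without a block (filled) and with the replicate block (open), and the differences of the 3 pairs of equal replicate number (grey). The intervals of Prph, Gfap and Elavl4 lie above 0 in both fits, that of Ngfr does so with the block, and those of S100b, Elavl3, Sox10 and Cdh19 cover 0.

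The 4 genes with a positive difference in all 3 pairs, Gfap, Ngfr, Elavl4 and Prph, are shown with their RefSeq promoters (250 bases before to 50 after the start, sense strand). Such a difference was seen in 29% of all genes. Capitals mark matches, on either strand, to the TATA box TATAAA, the GC box GGGCGG, the CAAT box CCAAT, the SOX core ACAAAG and the STAT motif TTCNNNGAA.
Gfap promoter, GRCm38.p6 chr11:102897151-102897450, strand -: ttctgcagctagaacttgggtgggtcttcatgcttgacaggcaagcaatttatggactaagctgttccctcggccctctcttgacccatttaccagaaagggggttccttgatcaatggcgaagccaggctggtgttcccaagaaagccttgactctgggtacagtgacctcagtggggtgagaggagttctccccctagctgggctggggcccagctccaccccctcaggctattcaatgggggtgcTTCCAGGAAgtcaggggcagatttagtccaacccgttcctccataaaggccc
Ngfr promoter, GRCm38.p6 chr11:95587649-95587948, strand -: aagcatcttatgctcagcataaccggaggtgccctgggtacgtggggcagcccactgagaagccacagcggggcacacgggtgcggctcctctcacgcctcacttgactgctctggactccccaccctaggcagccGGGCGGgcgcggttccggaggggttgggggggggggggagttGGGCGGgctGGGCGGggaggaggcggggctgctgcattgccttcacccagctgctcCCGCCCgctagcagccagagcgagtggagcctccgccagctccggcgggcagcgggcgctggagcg
Elavl4 promoter, GRCm38.p6 chr4:110351862-110352161, strand -: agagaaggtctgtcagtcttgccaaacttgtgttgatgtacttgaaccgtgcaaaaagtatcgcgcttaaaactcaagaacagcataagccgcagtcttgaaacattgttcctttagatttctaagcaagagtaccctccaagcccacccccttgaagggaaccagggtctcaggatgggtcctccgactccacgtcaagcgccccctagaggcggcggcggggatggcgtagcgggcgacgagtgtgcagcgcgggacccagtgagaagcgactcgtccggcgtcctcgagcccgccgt
Prph promoter, GRCm38.p6 chr15:99054924-99055223, strand +: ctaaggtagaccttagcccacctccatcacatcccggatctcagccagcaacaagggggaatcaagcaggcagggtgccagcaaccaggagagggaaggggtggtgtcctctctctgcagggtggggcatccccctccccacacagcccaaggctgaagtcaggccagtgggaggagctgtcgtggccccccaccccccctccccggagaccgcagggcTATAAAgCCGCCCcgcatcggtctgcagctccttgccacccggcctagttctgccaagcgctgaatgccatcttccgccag
The Gfap window held 1 STAT match, a motif with a match in 8.3% of all 32851 promoters. The Ngfr window held 4 GC boxes, a motif present in 35.7% of promoters, and 71.7% G and C, where the median promoter had 52.7%. The Prph window held 1 TATA box, present in 13.6% of promoters, and 1 GC box beside it. The most upstream of the 4 Elavl4 starts is printed, and it held no match to any of the motifs. The Elavl4 starts that are not printed held 2, 2 and 1 CAAT boxes, a motif present in 37.4% of promoters. Which start the transcript read by the probes uses was not tested. No SOX core, present in 18.7% of promoters, was found in the 4 printed windows, and the matches did not overlap each other. Of the 8 genes, 6 had a promoter in the table.

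Across the 6 arrays the log2 level of Sox10 did not follow those of the other glial genes. Its Pearson's r was −0.58 with S100b, −0.69 with Cdh19, −0.25 with Gfap and −0.31 with Ngfr. Gfap had r = 0.61 with S100b and 0.68 with Ngfr. Elavl4 followed Ngfr (r = 0.90), Prph (0.82) and Gfap (0.81) more closely than Elavl3 (0.38). These values describe 6 arrays that share their groups, pairs and slides. Among 16688 named genes above background on all arrays, those most like Sox10 were Nfib (r = 0.992), Ltc4s (0.989) and Dlx6os2 (0.988), and those most like Elavl4 were Aurkc (0.998), A530032D15Rik (0.996) and Cphx1 (0.994). With so few arrays, 104 genes exceeded r = 0.9 with Sox10 and 574 with Elavl4.

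Related genes were read in 8 lists, 112 genes in all, of which 93 were tested. Of these 0 passed without the block (limma, 24 at an unadjusted p under 0.05), against 0.105% of all genes (16.6% unadjusted). With the block 15 rose and 2 fell, against 6.63% and 1.73% of all genes. Many of these calls were lost without pair 2, in a fit on fewer arrays. In that fit 336 of all 25790 genes passed, against 2157 with every pair. There the blocked fit called 0 Schwann lineage, 1 repair, 0 neurotrophin and GDNF family, 0 general neuronal, 2 autonomic and sensory, 1 intermediate filament and 0 S100 genes.

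Schwann lineage and myelin genes had a median change of 0.16 over 23 tested of 26, with 15 higher and 8 lower. The median was 0.024 under quantile normalization (13 higher, 10 lower), 0.025 in the authors' values and 0.020 after scaling by the median. Within the shared slide it was 0.055. With the block 4 rose, 1 fell and 18 did not pass. Egr2, the master factor of myelination and also an early response gene in many cells, had 23.2%, 38.1% and 30.7% of P75 in exoNOD cells, and 9.48%, 7.85% and 17.9% in control cells. The groups did not overlap, and Egr2 rose 2.73-fold with the block (log2 change 1.45 ± 0.31, adjusted p = 0.0995, 0.0059 with the block). The others that rose were Foxd3, a neural crest factor (2.14-fold, adjusted p = 0.0100 with the block), Fabp7, a lipid carrier of Schwann cell precursors (log2 change 0.67, 0.0363), and Sostdc1, a secreted BMP and Wnt antagonist (1.14, 0.0491). Ncmap, a protein of compact peripheral myelin, fell by 0.44 on the log2 scale (0.0216). Pou3f1, a factor of the premyelinating stage, changed by 0.47 and did not pass (0.0561). Without exoNOD replicate 3 the change of Foxd3 was 0.61 and that of Fabp7 was 0.33. Fabp7 changed by 0.39 without control replicate 2 and by 1.098 without control replicate 3. Sostdc1 changed by 0.73 without exoNOD replicate 2 and by 0.59 with the block without pair 2. After quantile normalization with the block, Egr2 still rose and Ncmap still fell, and the other 3 did not pass.

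Schwann repair and injury genes, which Schwann cells switch on after nerve damage and which many other cells also use, had a median change of 0.36. Of the 11 tested genes 11 were higher, where 55.4% of all genes had a positive change. This was not particular to the list, as 5 of 5 tested central glia markers were higher too (median 0.39). The median of the repair list was 0.25 under quantile normalization and 0.22 after scaling by the median. Within the shared slide it was 0.15, with 10 of the 11 higher. With the block 4 rose, namely the filament gene Vim (log2 change 0.73, adjusted p = 0.00304), the neurotrophin gene Bdnf (0.66, 0.0362) and the transcription factors Atf3 (0.41, 0.0406) and Jun (0.45, 0.0343). Without exoNOD replicate 3 the change of Bdnf was 0.35 and that of Jun was 0.098. Jun changed by 0.11 without control replicate 1, by 0.87 without control replicate 3 and by 0.28 with the block without pair 1. Vim had 1748%, 2002% and 2311% of P75 in exoNOD cells, and 1141%, 1016% and 1532% in control cells, without overlap. Tnc, an extracellular matrix protein, changed by 0.89 and did not pass (0.0561). After quantile normalization with the block 1 of the 4 passed, Vim. Shh, Olig1, Sox2 and Runx2, further genes of the repair state, did not pass the filter on dim probes and were not tested.

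Among neurotrophin, GDNF family and neuregulin ligands and receptors, the signalling partners of Ngfr and of Schwann cell growth, 2 of 17 tested genes rose with the block, and the other 15 stayed short of the threshold (median change 0.11). The median turned negative under quantile normalization (−0.034, 8 higher and 9 lower), in the authors' values (−0.036), after scaling by the median (−0.032) and with the block without pair 2 (−0.028). Within the shared slide it was 0.0086. Gfra2, the receptor for neurturin, had 5.91%, 8.02% and 13.1% of P75 in exoNOD cells, and 2.51%, 2.75% and 2.67% in control cells. Every exoNOD array had more than any control. Gfra2 was 3.23-fold higher (log2 change 1.69 ± 0.28, adjusted p = 0.0744) and rose with the block (0.00266), also after quantile normalization (0.0239). The other gene that rose was Bdnf, which also stands in the repair list. Erbb2, a co-receptor for neuregulin, changed by 0.36 (0.245 with the block).

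General neuronal genes, most of which endocrine cells share, had a median change of −0.12, with 6 higher and 11 lower of 17 tested. Within the shared slide the median was 0.017, with 10 higher and 7 lower, so its direction was not settled. With the block 0 rose and 1 fell, Snap25, a protein of vesicle release that beta cells use (log2 change −0.40, adjusted p = 0.147, 0.0166 with the block). Snap25 had 1005%, 1075% and 947% of P75 in exoNOD cells, and 1341%, 1425% and 1232% in control cells. Its groups were apart. The neurofilament gene Nefl changed by 0.65 (0.124 with the block), the tubulin gene Tubb3 by 0.28 (0.0879) and the growth cone gene Gap43 by 0.31 (0.115). Nefl was well above background on 3 exoNOD arrays and 1 control array.

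Autonomic and sensory neuron transmitter genes had a median change of 0.36, with 12 of 15 tested genes higher. The median was 0.13 both under quantile normalization and in the authors' deposited values, and 0.24 within the shared slide. With the block 4 rose, 0 fell and 11 did not pass, while 7 of the 22 listed were not tested. Chat, which makes acetylcholine, had 282.7%, 582.1% and 566.8% of P75 in exoNOD cells, and 159.9%, 195.5% and 240.1% in control cells. It was 2.32-fold higher without overlap (log2 change 1.21 ± 0.27, adjusted p = 0.121) and rose with the block (0.00114). Dbh, which makes noradrenaline, had 2.54%, 5.20% and 5.02% of P75 in exoNOD cells, and 1.28%, 1.40% and 1.43% in control cells (log2 change 1.56, 0.0845, 0.00597 with the block). Phox2a, a factor that specifies autonomic neurons, rose with the block too, by 1.20 (0.00688). Dbh was well above background on only 1 control array. Th, which makes the precursor of noradrenaline and was named after its values were seen, changed by 0.071 (adjusted p = 0.880, 0.602 with the block). After quantile normalization with the block, Chat (0.0100) and Dbh (0.0274) passed, and Phox2a (0.0571) did not.

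Sequence relatives of the 8 genes were read as well. Of the 8 intermediate filament relatives of Gfap and Prph, 6 were higher and 1 rose with the block, Vim. Their median change was 0.35, and 0.11 within the shared slide. The filament gene Synm changed by 0.59 (adjusted p = 0.116 with the block) and Ina by −0.18 (0.163). Of the Hu and Elav-like relatives, 3 of 4 were tested and 0 passed. Elavl1, the Hu protein of all cells, changed by −0.078 (0.545 with the block), Celf1 by −0.19 (0.155) and Celf2 by −0.039 (0.804). Of 12 tested S100 relatives, 6 were higher, 6 were lower and 2 rose with the block. S100a6 changed by 0.68 (0.0053) and S100a4, of fibroblasts and leukocytes, by 0.66 ± 0.62 (0.0359), and the median was 0.012. After quantile normalization with the block S100a6 passed (0.0275) and S100a4 did not (0.0828). The change of S100a4 was 0.20 without exoNOD replicate 3, 0.42 without control replicate 1, 0.14 without control replicate 2 and 1.41 without control replicate 3. S100a5 changed by 0.55, S100a14 by −0.78 and S100a3 by −0.28, and none of these 3 passed with the block (0.0691, 0.265 and 0.175).

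**Figure D4:**
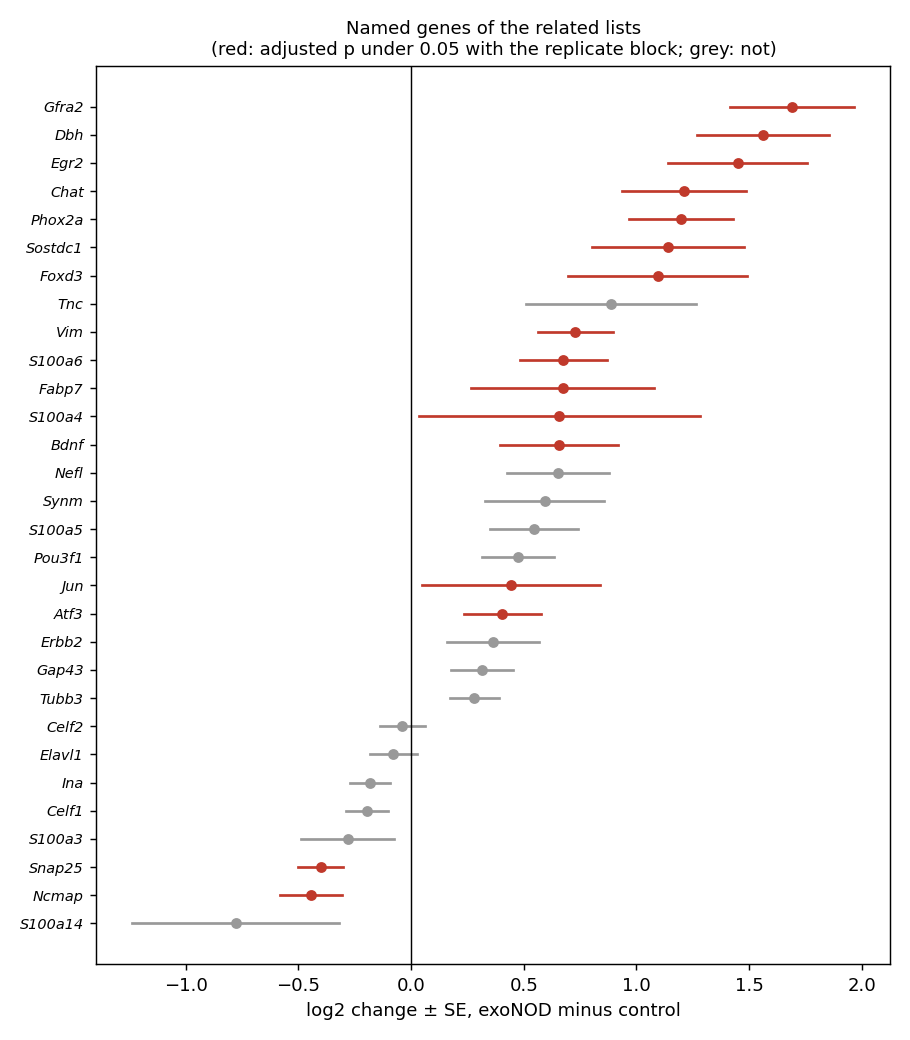
Log2 change ± SE (limma without the block, n = 3 arrays per group) of the genes named here from the 8 related lists. Red marks an adjusted p under 0.05 with the replicate block, and grey marks the genes that did not pass. The greatest rise among these is Gfra2 (1.69).

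Of 62 tested markers of other cells, 0 passed without the block (limma, 13 at an unadjusted p under 0.05), against 0.105% of all genes (16.6% unadjusted). The counts that follow are with the block, where 6.63% of all genes passed higher and 1.73% lower. Of the beta cell markers 0 rose and 4 of 8 fell with the block (median change −0.21), and their summed signal was 1058 to 1075 times P75 in exoNOD cells and 1084 to 1148 times in control cells. Of the fibroblast and stellate cell markers 1 of 10 rose, Pdgfra (log2 change 1.23, adjusted p = 0.0142 with the block), with summed signals of 62.3 to 87.6 in exoNOD cells and 52.8 to 76.9 in control cells. Of the macrophage markers 2 of 4 tested fell, Itgam (log2 change −0.50) and Adgre1 (−0.87), while Csf1r (−0.019) and Lyz2 (−0.024) hardly changed. The sum of the 4 was 15.4 to 15.7 in exoNOD cells and 20.4 to 21.7 in control cells. Most of it was Itgam, with 1204% to 1323% of P75 in exoNOD cells and 1717% to 1864% in control cells. Of the duct markers 2 of 5 rose, Cftr (log2 change 0.82) and Spp1 (1.56). Sox9 changed by 0.29 and did not pass, and the duct keratins Krt19 (−0.17) and Krt7 (−0.042) were not higher. The duct sums, to which Cftr and Spp1 add, were 7.03 to 9.31 in exoNOD cells and 4.53 to 6.73 in control cells. With the block 1 of 6 acinar markers rose, 1 of 5 endothelial markers rose and 1 fell, 1 of 4 tested T lymphocyte markers rose, 1 of 5 tested central glia markers rose, and 0 of 6 melanocyte, 0 of 6 alpha cell and 0 of 3 delta cell markers passed. Median changes were positive for central glia (0.39, 5 of 5 higher), duct (0.29), T lymphocyte (0.27) and acinar markers (0.24). They were also positive for endothelial (0.11), melanocyte (0.038) and fibroblast and stellate markers (0.015). Macrophage (−0.26), delta (−0.21) and alpha cell markers (−0.064) had negative medians. Without pair 2 the blocked fit called 1 beta, 1 macrophage and 1 duct marker, and 0 fibroblast and stellate, 0 acinar and 0 central glia markers. There 1 endothelial marker rose, 1 endothelial marker fell and 1 T lymphocyte marker rose, as with every pair. Of all 25790 genes 336 passed in that fit. Their part in the changes of the Schwann cell and neuronal genes was not tested.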

How the data were processed

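Total RNA of 6 dispersed islet cell cultures (3 exoNOD, 3 control) was labelled with Cy3 and read on 1-colour Agilent arrays. The authors' deposited array files are output of Agilent Feature Extraction 11.0.1.1, per the submitters' processing notes and the file headers. Its processed signal is a deposited intensity with background subtracted within the array and no normalization between arrays. Deposited flags mark uneven or saturated spots and those well above background. The authors' deposited values are on the log2 scale, by a method not given in the sources used here. They follow the log2 processed signal of their own arrays (r of at least 0.9998 across probes).

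Here log2 processed signal minus the 75th percentile of each array was used. Control spots were left out. Spots marked as outliers, 164 to 266 per array, were left out where another spot of the probe remained, and kept otherwise. No member's spot was left out, as 0 of the 10 Ngfr spots were marked and the other members' probes had 1 spot each. Spots of a probe were averaged. A probe was kept where every array of either group had it well above background (31065 of 39429). RefSeq accessions gave symbols to 27234 probes, and the rest went by probe name. Each gene took its brightest probe by mean signal (25790 genes, 17258 with a symbol). The test was that of limma 3.58.1 (lmFit, then eBayes with a trend) under R 4.3.3, files being read with the data.table package (version 1.17.8), adjusted by Benjamini-Hochberg over all genes, and the code was tested on simulated data. The scanner files hold no mean signal, so normexp (offset 50) used the median signal. No genome positions were used beyond the printed promoters. Alternatives covered background correction, scaling, the filter, the probe choice, slide, the block and arrays left out.

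Equal replicate numbers correlated in their deviations from the group means at r = 0.36, 0.28 and 0.47, above 0.1 for each pair, and other combinations lay between −0.34 and 0.0087. The numbers were taken as pairs on that basis, which the labels do not state, and the block stands beside the fit without it. The design has 3 arrays per group from separate preparations, and so few arrays set the limit of precision. The 8 genes, the related lists, the cell type markers and the tests were chosen with earlier results of these data known. From each related list the 4 genes with the lowest unadjusted p are named, with any that passed with or without the block. Some genes that this rule takes are not reported here, though the counts include them. For Sox10 and Elavl4 the 3 most correlated genes are named.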

Additional observations from a re-analysis of the deposited data

How the results depend on the processing

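The gene counts, the 8 genes, the named related genes and the related lists' medians were recomputed under 23 alternatives. S100b and some related genes, such as Dbh and Nefl, had no value where only genes above background on all arrays were kept. Counts of list genes past the threshold were recomputed with the block in 4 ways and in the shared slide. The separate probes, the Ngfr spots, the correlations and the promoters had no alternative. The count of 27 genes past the threshold was 2157 with the replicate block, 1168 for the block under quantile normalization, 1231 for the block on values of the authors, 13 after scaling by the median, 166 with normexp background correction, 0 without a filter on dim probes (limma, 4622 at an unadjusted p under 0.05), 0 without a trend (4345), 294 with array weights, 2 with slide as a block and 2 in the shared slide alone. It ranged from 0 to 1268 with 1 array left out, and from 336 to 4171 with the block and 1 pair left out. Leaving out control replicate 1 gave 0 in limma (2546 genes had an unadjusted p under 0.05), as did leaving out control replicate 2 (2415) or exoNOD replicate 2 (3041). The count was 2 when exoNOD replicate 3 was dropped, 74 for control replicate 3, and 1268 for exoNOD replicate 1, whose loss puts the groups on separate slides. The block gave 4171, 336 and 1740 when pairs 1, 2 and 3 were left out in turn. The count of 0 among the 8 genes was 2 with the replicate block, 1 for the block under quantile normalization and 1 for the block on values of the authors, and ranged from 0 to 2 with the block and 1 pair left out. It stayed 0 in the other settings. The median change of all genes was 0.35 with normexp correction and −0.11 after scaling by the median, against 0.035.

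Several directions turned. S100b was −0.15 after quantile normalization, with and without the block, −0.15 in the authors' values, with and without the block, and −0.16 with slide as a block and in the shared slide alone. Elavl3 was −0.18 in those quantile and authors' settings, and −0.051 after scaling by the median. Sox10 was 0.044 with normexp correction and 0.13 with slide as a block and in the shared slide. Cdh19 was 0.58 and S100a14 0.50 with normexp correction, Elavl4 was −0.10 with its second probe, and Celf2 was 0.032 with slide as a block and in the shared slide. With 1 array left out, Sox10 ranged from −0.16 to 0.084, S100b from −0.23 to 0.48 and Elavl3 from −0.17 to 0.42. With the block and 1 pair left out, Sox10 ranged from −0.19 to 0.10, S100b from −0.081 to 0.32, Elavl3 from −0.065 to 0.31, Cdh19 from −0.80 to 0.19, Celf2 from −0.093 to 0.035 and S100a14 from −1.32 to 0.053. The causes were not tested. Gfap, Ngfr and Prph kept a positive change in all 23 alternatives, which are not separate checks. The replicate block and the fit without a trend cannot alter the size of a change, and slide as a block repeats the shared slide. Ngfr and Prph have no second probe. Counts of list genes with a pair left out or after quantile normalization with the block were added after seeing the data.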
